A study of Saccharomyces cerevisiae with 36 samples.

Results

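The data described here are 4 of the 36 arrays of the series, which follow YPS163 through its first hour in ethanol. YPS163 is a wild strain of the yeast Saccharomyces cerevisiae, isolated from oak. Cultures grew in log phase in YPD, a rich medium, at 30 °C, and ethanol was added to 5% by volume. RNA taken after 15, 30, 45 and 60 min was compared on 2-colour DNA microarrays with RNA from unstressed YPS163, with 1 array per time. The members are the 4 arrays whose titles name YPS163 at these times, with array 1 of the 3 at 30 min. Arrays 2 and 3 at 30 min, stated to be biological replicates, were used only to gauge the spread. Other arrays served as readouts that had no part in sorting the genes: the same 4 times in M22, a wild strain, and in DBY8268, which serves as the laboratory strain; and the 30 min ethanol response of YPS163 MATa msn2D, lacking MSN2, of YPS163 MATa hap1D, lacking HAP1, and of YPS163 MATa, which carries neither deletion. Each of these ratios compares a strain in ethanol with the same strain unstressed.

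Yeast cells that meet ethanol, heat or other stress turn on heat shock genes through the factor Hsf1 and a broad set of protective genes through Msn2 and its relative Msn4. They also turn down the genes that build ribosomes. Ethanol disturbs membranes and protein folding, and unfolded proteins in the endoplasmic reticulum (ER) call up folding factors through Hac1. Many such responses in yeast are strongest soon after the stress and relax as cells adapt.

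Values are log2 ratios of ethanol over unstressed cells, so that 1 is a 2-fold higher and -1 a 2-fold lower level in ethanol. The direction was read from the order of conditions in the titles and from the values, and is likely but not certain. The table lists 6295 open reading frames (ORFs), and 4598 of them had a value at all 4 times. The arrays held 5517, 5324, 5613 and 5277 values at 15, 30, 45 and 60 min. A stretch of 270 ORFs from YOR017W to YOR284W had 58, 37 and 4 values on the first 3 arrays and 231 on the 60 min array. That fuller coverage was shared with 14 other arrays, among them those of YPS163 MATa and its deletion strains, while the 60 min arrays of M22 and DBY8268 had 0. In YPS163, the 60 min point and this kind of array cannot be told apart. Across genes, the 30, 45 and 60 min arrays correlated better with arrays 2 and 3 of YPS163 at 30 min (0.783 to 0.860) than with those of M22 (0.730 to 0.816) or DBY8268 (0.674 to 0.772). The 15 min array correlated at 0.741 with YPS163, 0.740 with M22 and 0.773 with DBY8268, which did not mark it as YPS163.

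The size of the changes between times was first set against the spread between replicates. Arrays 2 and 3 at 30 min differed from array 1 by at least 2-fold for 8.10% and 14.5% of genes, and from each other for 4.79%. Between neighbouring times the share was 10.1% from 15 to 30 min, 6.64% from 30 to 45 min and 8.66% from 45 to 60 min. These shares lay within the range seen between replicates. Over the whole course, 26.4% of genes differed at least 2-fold between 60 and 15 min, 15.2% being higher at 60 min and 11.3% lower. The share was 16.6% between 45 and 15 min. The SD over the 3 arrays at 30 min had a median of 0.289 over 4811 genes.

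**Figure D1:**
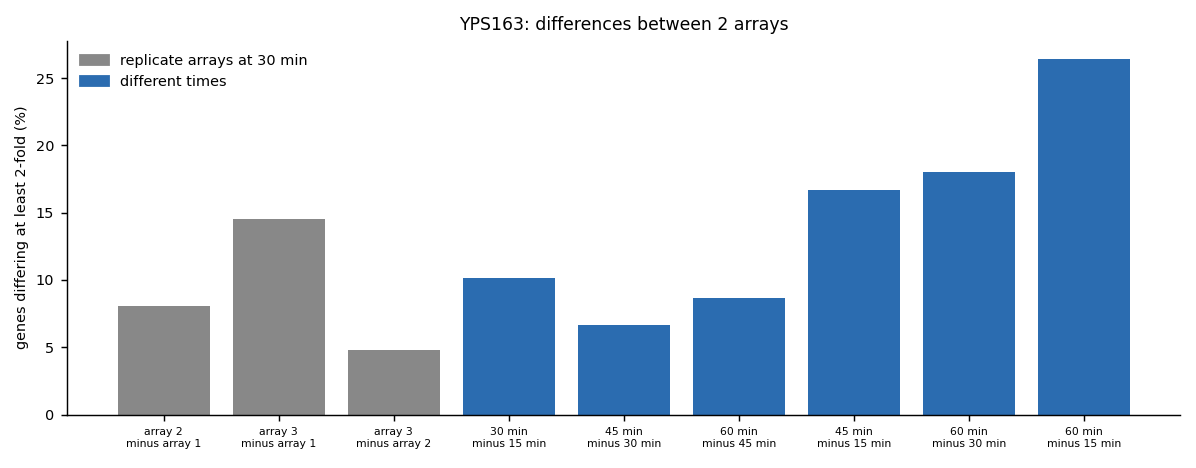
Share of genes (y axis, %) whose log2 ratios differ by at least 1 between 2 YPS163 arrays. Grey bars are the 3 pairs of replicate arrays at 30 min (4.79% to 14.5%), and blue bars are pairs of times, of which 60 minus 15 min is the tallest at 26.4%.

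Of the 4598 genes, 2352 reached a 2-fold difference at 1 or more times. Of these, 1315 were early, meaning at least 2-fold at 15 min in the direction of their largest value: 601 up and 714 down. Genes were sorted by fixed rules of size, with no test, since each time has a single array. Transient genes (112 up, 147 down) were at least 2-fold at 15 min and 1 other time and by 60 min had lost at least 1 log2 unit and at least 50% of their peak. Genes changed at 15 min only (23 up, 19 down) were past 2-fold then alone, by at least 1 log2 unit more than at any later time. Lasting genes were at least 2-fold at all 4 times and not transient (251 up, 325 down). Delayed genes were under 2-fold at 15 min and past it from 30 min on (94 up, 119 down). Late genes were under 2-fold at 15 and 30 min and past it at 45 and 60 min (44 up, 31 down). Their mean of 45 and 60 min also had to lie at least 1 log2 unit beyond that of 15 and 30 min. On arrays 2 and 3 at 30 min the late genes had medians of 0.84 and 0.85 up and -1.12 and -1.06 down. These lay further from 0 than on array 1 (0.54 and -0.57). With array 2 or 3 as the 30 min point, 21 of 40 and 25 of 43 late genes up stayed late. Of the late genes down, 10 of 31 and 13 of 30 did, so membership of this class depends on the 30 min array. A further 30 and 37 genes, with their largest value up or down, were past 2-fold in both directions at different times and are called reversing. The remaining 1120 responders, 585 up and 535 down, met none of these rules. Near the limit, 479 genes had a largest value between 1 and 1.2, and 556 genes just missed with one between 0.8 and 1. Likewise 43 transient genes had lost only 1 to 1.2 from their peak.

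Leaving out the 60 min array, with 45 min as the last time, left 67 transient genes up and 46 down, of which 40 and 30 were also transient with all 4 arrays. The size of the transient class therefore depends on the last array. With array 2 or 3 as the 30 min point, 86 of 109 and 90 of 112 transient genes up stayed transient. Of the transient genes down, 100 of 143 and 99 of 143 did. The 30 min median of the transient genes down was -0.95 and -0.94 on arrays 2 and 3, against -1.59 on array 1.

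**Figure D2:**
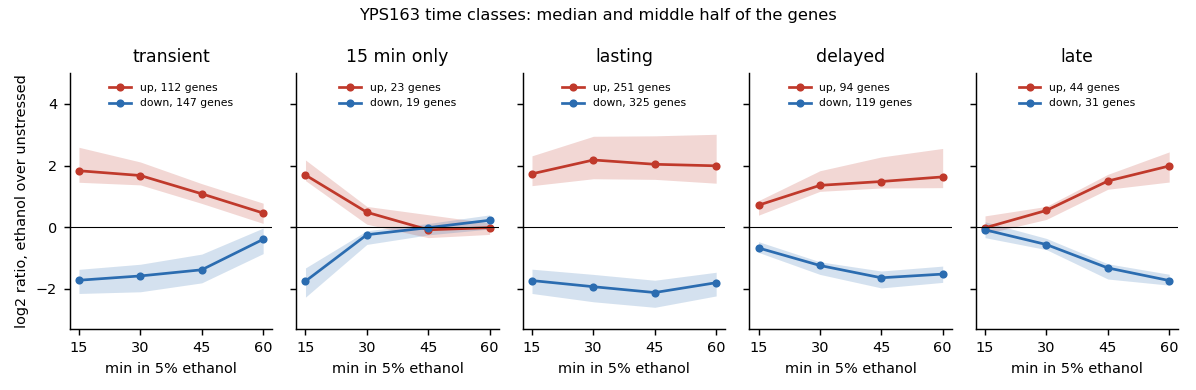
Median log2 ratio (y axis) of the genes of 5 time classes against min in ethanol (x axis), red for genes up and blue for genes down, with the middle 50% of genes shaded. The medians of lasting genes stay near 2 and -2, those of transient genes end at 0.46 and -0.40, and those of late genes stand near 0 at 15 min, at 0.54 and -0.57 at 30 min and furthest from 0 at 60 min.

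Heat shock chaperones, mostly of the cytosol with a few of mitochondria, had their highest median at the first time. The median over the heat shock chaperones stood at 2.14, 1.26, 0.77 and 0.38 at 15, 30, 45 and 60 min, beside medians of -0.05, -0.01, -0.01 and 0.07 over all genes. At least 2-fold up were 21 of 25 measured members at 15 min, where 13.6% of all genes were, and 9 of 28 at 60 min, where 16.3% were. At 60 min 17 of 24 lay at least 2-fold below their 15 min value and 0 above it. Over all genes, 11.3% were lower and 15.2% higher. At 45 min 16 of 25 already lay below their 15 min value and 0 above it, where 9.32% of all genes were lower and 7.33% higher. Of 23 members with all 4 times, 9 were transient up, beside 2.44% of all genes.

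BTN2, a factor that gathers misfolded proteins, had the largest fall of all named transient genes. Its log2 ratio was 6.50 at 15 min, a 90.5-fold increase, then 2.57, 2.29 and 1.62. Arrays 2 and 3 at 30 min gave 1.65 and 1.69, so the drop after 15 min was seen on all 3 arrays. CUR1, its relative in the sequestration of damaged proteins, stood at 5.00, 2.33, 1.90 and 1.03. SIS1, an Hsp40 co-chaperone, stood at 3.69, 1.51, 1.03 and 0.56. HSP104, the disaggregase that pulls proteins out of aggregates, stood at 6.61, 4.90 and 3.12, with no value at 60 min. HSP78, its mitochondrial counterpart, stood at 4.97, 2.70, 3.16 and 2.01. HSP42, a small heat shock protein, was 62.7-fold up at 15 min and had log2 ratios of 5.97, 4.75, 3.87 and 2.88. It too counts as transient, although it was still well above 2-fold at 60 min. Not every chaperone came down to this extent. SSA4, a stress-induced Hsp70, stood at 5.79, 5.04, 4.87 and 3.55, and SSE2, an Hsp110, at 4.38, 4.17, 3.38 and 3.46. Both are among the lasting genes. YDJ1, the major Hsp40, was never 2-fold up: it stood at 0.60, -0.35, -1.27 and -1.74 and is a late gene down.

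Folding and degradation factors of the ER formed another transient group. Their median was 0.80, 0.78, 0.10 and -0.06, with 9 of 19, 9 of 18, 3 of 18 and 2 of 20 members at least 2-fold up, beside 13.6%, 15%, 14.1% and 16.3% of all genes. The counts at 45 and 60 min were thus near or below the share over all genes. Of 18 members with all 4 times, 8 were transient up, beside 2.44% of all genes. ERO1, the oxidase that drives disulphide bond formation, stood at 4.24, 2.40, 0.19 and -0.54, with 1.85 and 2.63 on the other arrays at 30 min. KAR2, the ER Hsp70, was held longer, at 3.23, 3.02, 1.37 and -0.01. SIL1, its nucleotide exchange factor, stood at 3.18, 1.52, 0.02 and -0.21. DER1, needed for ER-associated degradation, stood at 3.89, 2.17, 1.41 and 0.50. By 45 min ERO1 and SIL1 were already near 0. HAC1, which encodes the ER stress factor, is controlled chiefly by splicing, and its values of -0.93, -0.56, -0.98 and 2.83 hang on the 60 min array alone. At 30 min its 3 arrays ran from -0.56 to 1.92. Other leading transient genes were YET2 at 5.33, 2.90, 0.62 and 0.46 and OPI10 at 4.54, 2.11, 1.72 and 1.14. Arrays 2 and 3 at 30 min gave 1.95 and 2.55 for YET2 and 1.06 and 0.90 for OPI10.

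Proteasome genes were up less steeply and by the last time few were 2-fold up. Their median stood at 0.87, 1.24, 0.94 and 0.57. At least 2-fold up were 11 of 31 subunits and regulators at 15 min, 22 of 29 at 30 min, 12 of 29 at 45 min and 2 of 32 at 60 min, beside 13.6%, 15%, 14.1% and 16.3% of all genes. On arrays 2 and 3 at 30 min, however, RPN5 stood at 0.50 and 0.44 against 1.74 on array 1, and PRE9 at 0.58 and 0.27 against 1.48. The median of the list was 0.74 and 0.81 on those arrays, so the crest at 30 min was seen on array 1 alone. RPN4, the transcription factor of the proteasome genes, was highest at 15 min, with 2.74, 1.55, 1.19 and 0.67.

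A small group was past 2-fold at 15 min alone, by at least 1 log2 unit more than at any later time. FES1, the exchange factor of cytosolic Hsp70, stood at 2.52, 0.09, -0.39 and -0.78, and at -0.57 and -0.32 on the other arrays at 30 min. ROQ1, which redirects the ubiquitin ligase Ubr1 to misfolded proteins, stood at 4.46, 0.75, 0.98 and 0.72. LST8, a subunit of the growth-controlling TOR complexes, stood at 2.78, 0.91, 0.48 and -0.05. The 3 genes share a sharp first value, and all 3 arrays at 30 min put each of them under 2-fold. RTS3, of the same class, stood at 3.48, 0.69, 0.97 and 0.02, but at 1.76 and 1.90 on arrays 2 and 3. With array 2 or 3 as the 30 min point, 17 of 22 and 13 of 23 genes up stayed in the class. Downward, VHT1, the biotin transporter, stood at -2.81, -0.16, 0.02 and 0.30. CLB2, the main mitotic cyclin, stood at -2.30, -0.88, -0.40 and 0.05, although array 2 at 30 min gave -1.07.

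**Figure D3:**
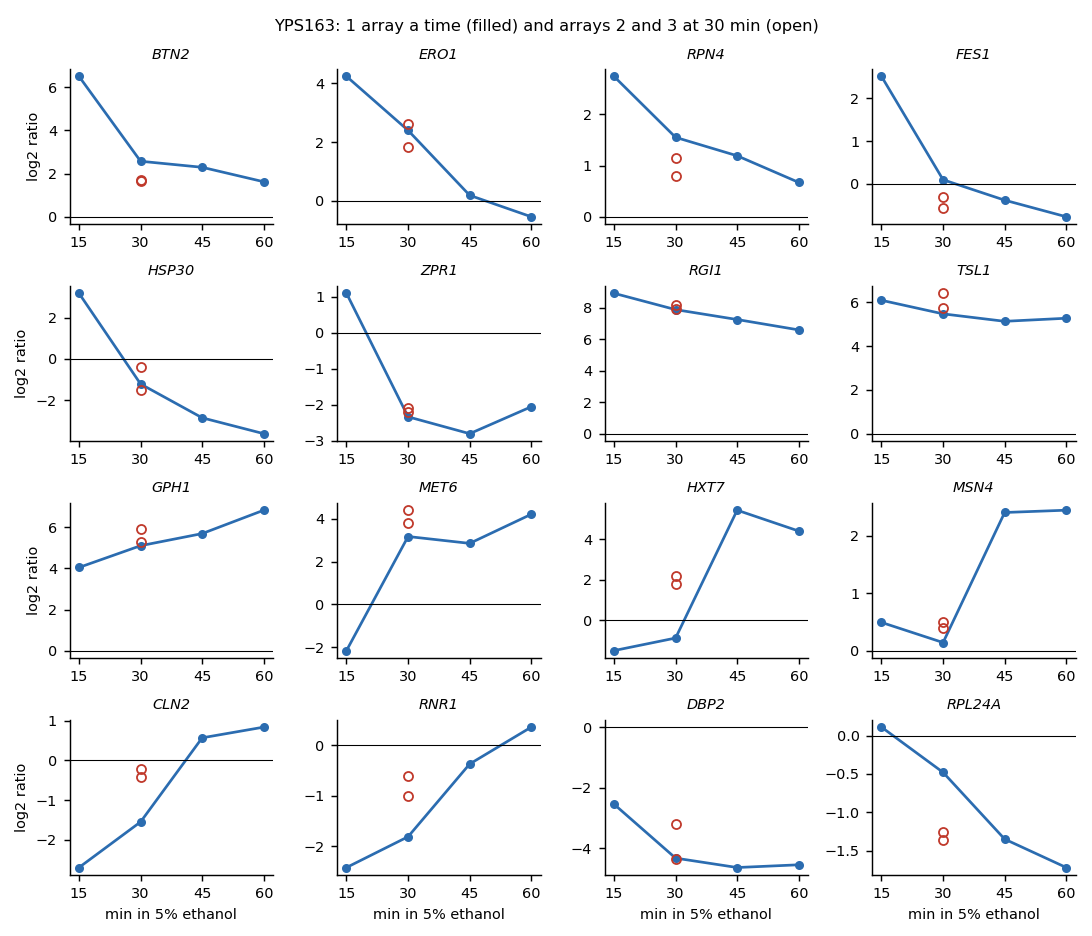
Log2 ratio (y axis, its range set per gene) of 16 genes against min in 5% ethanol (x axis). Filled blue points joined by lines are the 4 arrays of the course, and open red circles are arrays 2 and 3 at 30 min, which lie close to array 1 for RGI1 and ZPR1 and about 3 units above it for HXT7.

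Most general stress genes with all 4 times were lasting genes up. The median of the list stood at 1.62, 2.26, 2.45 and 2.56. At least 2-fold up were 33 of 47 members at 15 min and 31 of 38 at 60 min, beside 13.6% and 16.3% of all genes. Of 35 with all 4 times, 21 were lasting up, beside 5.46% of all genes, and 2 transient up. RGI1, a gene of respiratory growth, had the highest mean of all named lasting genes, with 8.93, 7.89, 7.26 and 6.60. Arrays 2 and 3 at 30 min gave 8.18 and 7.94. CTT1, the cytosolic catalase, stood at 3.76, 2.26, 1.72 and 2.55. ALD4, the mitochondrial aldehyde dehydrogenase, was still climbing at the last time, with 1.62, 3.89, 4.47 and 4.77. UBI4, the polyubiquitin gene, stood at 1.27, 2.03, 3.73 and 3.77 and shows the limit of the single arrays: arrays 2 and 3 at 30 min gave 4.16 and 5.03, above every time of the course.

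Storage carbohydrate genes were up as a block. The median of the trehalose and glycogen genes stood at 2.05, 2.49, 2.92 and 2.48. Of 18 with all 4 times, 12 were lasting up, beside 5.46% of all genes. TSL1, a subunit of trehalose synthase, stood at 6.09, 5.47, 5.13 and 5.27. GPH1, glycogen phosphorylase, stood at 4.05, 5.11, 5.70 and 6.84, and GSY1, glycogen synthase, at 3.64, 4.75, 6.17 and 6.29. Genes for making and for breaking down these stores were therefore up together. NTH1, the neutral trehalase, stood at 2.05, 2.49, 2.29 and 1.83. HXK1, a hexokinase, held an even 5.99, 6.66, 6.72 and 6.52. PGM1, the minor phosphoglucomutase, went the other way with -0.42, -1.13, -1.78 and -1.43, whereas PGM2, the major form, had 6.24, 5.97 and 4.67 at 15, 30 and 60 min.

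Autophagy and vacuolar protease genes were up in growing number. Their median stood at 1.15, 2.12, 2.06 and 2.65. At least 2-fold up were 8, 10, 11 and 12 of 13 genes, beside 13.6%, 15%, 14.1% and 16.3% of all genes. ATG8, which coats the growing autophagosome, was early at 3.94, 4.16, 3.78 and 3.44. ATG19, the receptor that brings vacuolar hydrolases to that membrane, was delayed at 0.25, 1.36, 2.71 and 3.22. PEP4, the vacuolar protease that activates the others, stood at 1.38, 2.12, 2.05 and 2.49.

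The TCA cycle genes had a median of 0.32, 0.38, 0.82 and 1.22. At least 2-fold up were 4 of 24 members at 15 min, near the 13.6% of all genes. At 60 min 15 of 23 were, beside 16.3% of all genes. On arrays 2 and 3 at 30 min the median was 0.80 and 0.99, near the 45 min value, so the time at which the list came up is not settled. LSC2, a subunit of succinyl-CoA ligase, stood at -0.01, 0.17, 1.53 and 2.30, and IDH1, of isocitrate dehydrogenase, at 0.01, 0.39, 1.33 and 1.99. Both are late genes up, although LSC2 had 0.63 and 1.26 on arrays 2 and 3 at 30 min, the last being past 2-fold. ACO1, aconitase, went through -1.54, -0.89, 0.57 and 1.37, and its other arrays at 30 min, at 0.34 and 0.99, lay nearer to the later times. The median of the respiratory chain genes stayed close to 0, at 0.32, 0.12, 0.12 and 0.24. At 60 min 6 of 38 were at least 2-fold up, near the 16.3% of all genes, and 0 down. Single members departed from the median. STF1 was delayed at 0.70, 2.77, 4.13 and 4.88, with 3.66 and 3.12 on arrays 2 and 3 at 30 min. NDE1 stood at -1.62, -2.69, -1.68 and -0.70.

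Among the leading late genes up, MTH1, a repressor of hexose transporter genes, stood at -0.20, 0.24, 2.33 and 2.79. Its other arrays at 30 min gave 1.36 and 1.5, which would make it delayed instead. SUC2, invertase, stood at -0.53, -0.32, 1.54 and 1.73. MSN4, the relative of MSN2, stood at 0.49, 0.14, 2.40 and 2.44, and its other arrays at 30 min gave 0.50 and 0.40, so its low early level was repeated. MSN2 itself stayed at 0.69, 0.35, 0.30 and 0.14.

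The hexose transporters split. HXT1, a low-affinity carrier, stood at -2.29, -4.07, -4.25 and -4.44. HXT6 and HXT7 are high-affinity carriers of nearly identical sequence, whose signals an array may not separate. HXT6 stood at -1.64, -1.43, 5.61 and 5.15, and HXT7 at -1.49, -0.87, 5.44 and 4.41. At 30 min HXT6 had 2.85 and 2.83 on arrays 2 and 3 and HXT7 had 2.20 and 1.82, so the sign at 30 min differed between array 1 and its replicates. The step itself is large on either reading, but its time is set only to between 15 and 45 min.

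Methionine and sulfur genes moved apart from one another. The median of the list stood at -0.28, 0.28, 0.34 and 0.85. At 60 min 14 of 26 genes lay at least 2-fold above their 15 min value and 1 below it, beside 15.2% and 11.3% of all genes. MET6, the methionine synthase, was low at 15 min and high after it, at -2.16, 3.17, 2.85 and 4.21. Arrays 2 and 3 gave 3.79 and 4.40 at 30 min. MET17, which fixes sulfide into homocysteine, stood at 0.22, 3.14, 3.21 and 4.60, and MET2, which makes its substrate, at 0.12, 1.45, 2.61 and 4.61. SAM1, which uses methionine to make S-adenosylmethionine, stood at -2.81, -2.62, -2.78 and -0.99. DIC1, the mitochondrial dicarboxylate carrier, was delayed with 0.27, 3.61, 3.51 and 2.19.

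A few genes stood high at 30 min alone. In all, 37 genes lay at least 2-fold above both neighbouring times, and for 8 of the 25 with 3 arrays at 30 min the other arrays did so as well. OAC1, a mitochondrial carrier of oxaloacetate and of leucine precursors, stood at -1.46, 2.67, -0.54 and -0.93, with 2.68 and 2.85 on arrays 2 and 3. LEU1, the isomerase of leucine synthesis, stood at -1.21, 2.17, 0.06 and -1.41, with 2.70 and 2.68. These peaks were repeated by independent cultures at 30 min, while the low values at 45 min rest on 1 array. ILV5, an enzyme of the same pathway, showed no such peak, at -3.05, -0.93, -1.61 and -1.33. In the opposite direction 42 genes lay below both neighbours, and arrays 2 and 3 repeated this for 1 of 29.

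Phosphate genes had their highest median on the last array. The median of the list stood at -0.10, 0.17, 0.71 and 1.74, and 10 of 16 genes were at least 2-fold higher at 60 than at 15 min, beside 15.2% of all genes. The list and these 10 include CTF19, a kinetochore gene, which stood at -0.32, 3.94, 1.12 and 3.15. PHO84, the high-affinity phosphate transporter, stood at -1.94, -0.33, 0.57 and 1.46. PHO5, the main secreted acid phosphatase, stood at -1.60, -2.61, -1.31 and 1.74. PHO12, an acid phosphatase nearly identical to PHO11, jumped by over 4 log2 units between the last arrays, with -1.69, -2.07, 0.78 and 4.97. In all, 47 genes were at least 4-fold higher on the 60 min array than on the 45 min array and 13 at least 4-fold lower. PUF3, an RNA-binding protein singled out after its values were seen, stood at -1.49, -1.24, -0.59 and 4.89. Whether such steps belong to the culture or to that array was not tested.

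**Figure D4:**
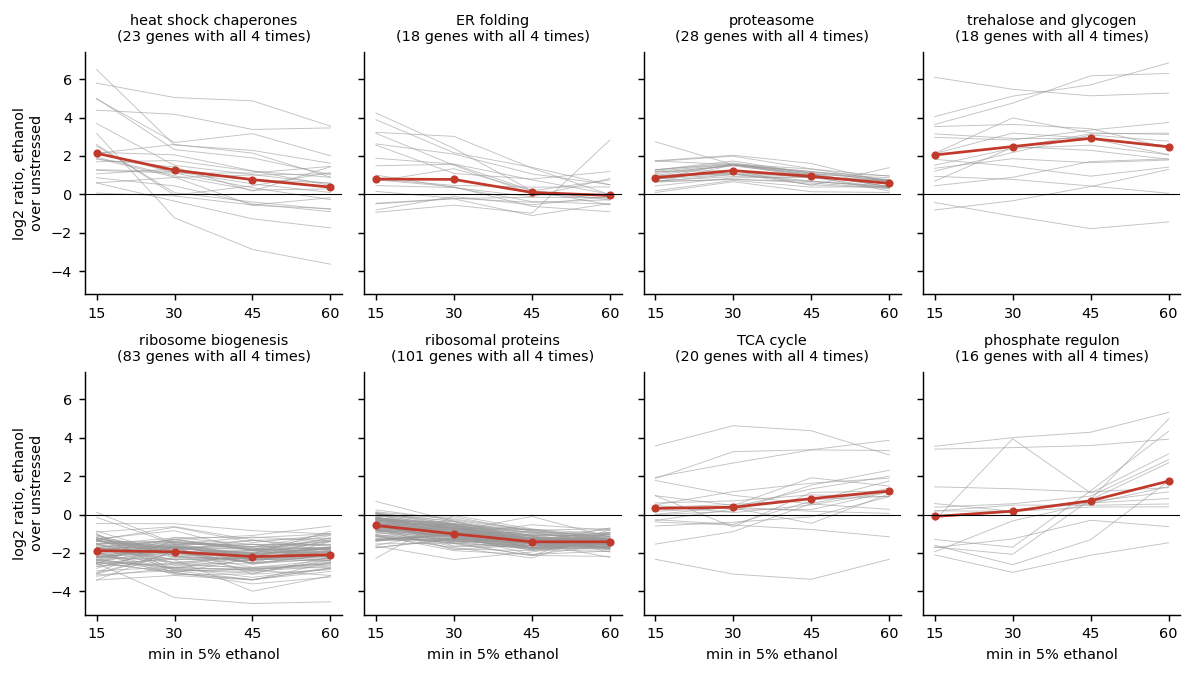
Log2 ratio (y axis) of the genes of 8 lists against min in 5% ethanol (x axis), 1 grey line for each gene with all 4 times and the median of the measured genes in red. Chaperone and ER folding medians decline to 0.38 and -0.06, ribosome biogenesis stays near -2, ribosomal proteins decline to -1.42, and TCA cycle and phosphate medians climb.

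Genes that build ribosomes were down from the first time and stayed down. The ribosome biogenesis list had a median of -1.88, -1.94, -2.19 and -2.09. At 15 min 82 of 90 members were at least 2-fold down, where 15.9% of all genes were, and at 60 min 90 of 93, where 16.1% were. Of 83 with all 4 times, 71 were lasting down, beside 7.07% of all genes. DBP2, an RNA helicase, had the lowest values, at -2.54, -4.32, -4.63 and -4.54. NSR1, a nucleolar RNA-binding protein, stood at -1.54, -2.36, -3.99 and -3.19. RNA polymerase I and III subunits had medians of -1.47, -1.46, -1.42 and -1.51.

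Ribosomal protein genes took longer and went less far. Their median stood at -0.57, -1.0, -1.42 and -1.42. At least 2-fold down were 27 of 125 at 15 min, 65 of 126 at 30 min, 98 of 111 at 45 min and 116 of 125 at 60 min, beside 15.9%, 17.5%, 18.4% and 16.1% of all genes. The median of the list on arrays 2 and 3 at 30 min was -1.38 and -1.29, near the 45 min value. Of 101 with all 4 times, 27 were delayed down, 13 late down and 16 lasting down, beside 2.59%, 0.674% and 7.07% of all genes. RPL24A stood at 0.11, -0.48, -1.35 and -1.72, and RPS12 at 0.68, -0.36, -1.10 and -1.95. On arrays 2 and 3 at 30 min RPL24A gave -1.26 and -1.36 and RPS12 gave -1.39 and -0.97. For both genes these lay nearer to the 45 min than to the 30 min value of the course. Many ribosomal protein genes come in pairs of similar sequence, which an array may not separate. The list also holds RPP1, which encodes a subunit of RNase P and not a ribosomal protein.

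AQY2 and FRE4 were among the lowest of the lasting genes down. AQY2, an aquaporin, stood at -3.48, -4.34, -5.31 and -5.56, and FRE4, a ferric reductase, at -3.48, -4.45, -5.48 and -5.14. Their other arrays at 30 min gave -3.90 and -3.96 for AQY2 and -3.89 and -4.58 for FRE4.

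In the list of cell cycle and histone genes, 9 of 34 were at least 2-fold down at 15 min, 7 of 33 at 30 min, 11 of 34 at 45 min and 1 of 31 at 60 min, beside 15.9%, 17.5%, 18.4% and 16.1% of all genes. The G1 cyclins CLN1 and CLN2 were among those down at 15 min and not at 60 min, whereas PCL1, also a G1 cyclin, was not 2-fold down at 15 min. CLN2, a G1 cyclin, stood at -2.70, -1.55, 0.57 and 0.84, and CLN1, its partner, at -1.99, -0.12, 0.80 and 1.26. For CLN2, arrays 2 and 3 at 30 min gave -0.41 and -0.22, which would leave it past 2-fold at 15 min alone. RNR1, the large subunit of ribonucleotide reductase, stood at -2.42, -1.81, -0.37 and 0.36, with -1.01 and -0.60 on arrays 2 and 3 at 30 min. SWI4, which drives G1 cyclin transcription, was never down and stood at -0.18, 0.62, 1.23 and 1.39. Among the core histone genes, HTA1 and HHF1 had their lowest value at 45 min. HTA1, a histone H2A gene, stood at -0.66, -1.66, -1.82 and -0.78, and HHF1, a histone H4 gene, at 0.96, -0.33, -1.22 and -0.45. In this list 11 of 31 genes were at least 2-fold higher at 60 than at 15 min and 4 lower, beside 15.2% and 11.3% of all genes, so the lower count is near the share over all genes.

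Purine and pyrimidine synthesis genes were down in the middle of the course, with a median of -0.98, -1.69, -1.45 and -0.32. ADE17, of the late purine pathway, stood at -0.80, -1.17, -1.77 and 1.48, whereas GUA1, GMP synthase, stayed down at -1.75, -3.18, -4.14 and -3.64. Cell wall genes had a median of -1.08, -0.80, -0.96 and -0.44. At 60 min 10 of 28 lay at least 2-fold above their 15 min value and 0 below it, beside 15.2% and 11.3% of all genes. The median difference between these times was 0.57. For ergosterol genes the median was -0.61, -0.99, -1.22 and -0.93, with 0 of 26 at least 2-fold up at any of the 4 times. ALD6, the cytosolic aldehyde dehydrogenase, stood at -2.40, -3.04, -1.01 and -0.23, and SHM2, a one-carbon enzyme, at -2.03, -2.50, -2.54 and 0.60.

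Among the reversing genes, HSP30, ZPR1 and TAD2 crossed to the low side. HSP30, a plasma membrane stress protein that restrains the proton pump Pma1, stood at 3.18, -1.22, -2.86 and -3.63. Its other arrays at 30 min gave -1.50 and -0.39. ZPR1, a chaperone of translation factor eEF1A, stood at 1.10, -2.34, -2.81 and -2.06, with -2.09 and -2.21. TAD2, a subunit of a tRNA-editing enzyme, stood at 1.06, -0.44, -1.50 and -2.55. NRD1, a transcription termination factor, was late: 0.26, -0.01, -2.22 and -3.22, with 0.75 and 0.84 on arrays 2 and 3 at 30 min.

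The courses of M22 and DBY8268 allowed a test of the change from 15 to 60 min on arrays that played no part in the classes. The fit took 8 arrays with strain as a block, so that the 2 strains stand in as replicates. By limma, with Benjamini-Hochberg adjustment over 4987 genes, 544 genes (10.9%) were higher at 60 min and 590 (11.8%) lower, at an adjusted p under 0.05. Of the transient genes up in YPS163, 37 of 106 were lower at 60 min in these strains and 2 higher. Of those up at 15 min only, 15 of 22 were lower, and of those down at 15 min only, 14 of 18 were higher. Late and delayed genes down were lower in 17 of 30 and 50 of 113 cases, and late and delayed genes up were higher in 14 of 44 and 25 of 84. Of the transient genes down, 26 of 138 were higher. These counts rest partly on 1 array. Without the 15 min array of M22 the fit called 56 genes higher and 141 lower in all (1.10% and 2.76%). Then 14 of 108 transient genes up were lower and 1 of 140 transient genes down was higher, the last being below the share over all genes. Genes up at 15 min only were lower in 8 of 22 cases and genes down at 15 min only higher in 3 of 18. Late and delayed genes down were lower in 6 of 30 and 14 of 113 cases, and late and delayed genes up higher in 5 of 44 and 5 of 86. Leaving out the 15 min array of DBY8268 also left 1 array at that time. The shares called among delayed genes down, late genes down and delayed genes up then fell, as did the shares over all genes.

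Several genes named above passed this test. BTN2 was lower at 60 than at 15 min by a log2 difference of -5.26 ± 0.42 (SE, limma adjusted p = 0.0026), HSP42 by -3.78 ± 0.23 (adjusted p = 0.0023) and ERO1 by -3.52 ± 0.28 (adjusted p = 0.0026). HSP30 had -5.51 ± 0.50 (adjusted p = 0.0036) and FES1 -3.77 ± 0.33 (adjusted p = 0.0034). VHT1 was higher at 60 min by 2.61 ± 0.36 (adjusted p = 0.0077), and PCL1, another G1 cyclin, by 2.89 ± 0.17 (adjusted p = 0.0023). In YPS163 PCL1 stood at -0.64, 1.13, 1.86 and 1.39. The start and end of HSP30 differed between strains, although all 3 came down: it stood at 4.46, 2.87, -0.44 and -1.38 in M22 and at 6.29, 6.46, 3.59 and 1.10 in DBY8268. MSN4 and LSC2, late in YPS163, did not pass, with limma adjusted p = 0.067 and 0.80.

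The same sorting rules were applied to each strain's own 4 arrays, and strains were compared over genes with all 4 times in both. The lasting classes are also the larger ones: lasting genes up were 5.75% of M22 and 5.50% of DBY8268 genes, transient genes up 3.53% and 2.62%, and late genes up 0.540% and 0.433%. Of the lasting genes up, 161 were common to YPS163 and M22, which is 66.8% of the YPS163 and 64.1% of the M22 class, and 134 were common to YPS163 and DBY8268 (55.4% and 59.6%). For transient genes up the overlap was 49 genes with M22 (45.4% and 34.0%) and 25 with DBY8268 (22.7% and 25.5%). For late genes up it was 5 genes with M22 (11.4% and 26.3%) and 0 of 44 YPS163 and 16 DBY8268 genes. No test was made of the difference between these shares.

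The msn2D strain gave a further readout, at 30 min. MSN2 itself had a value on 0 of the 3 msn2D arrays and stood at 0.28 and 0.05 on the YPS163 MATa arrays used. Array 3 of YPS163 MATa was left out, since its values sat 1 row out of place. By limma, with the spread shared over 26 arrays, 223 of 5394 genes (4.13%) had a higher ethanol ratio in msn2D than in MATa and 220 (4.08%) a lower one. Among lasting genes up, 75 of 232 were lower in msn2D, and among lasting genes down, 64 of 298 were higher, so that in both the ratios lay nearer to 0 in msn2D. Transient genes up were lower in 12 of 98 cases, delayed genes up in 13 of 84 and genes up at 15 min only in 1 of 20. These counts depend on MATa array 1 and on the scaling. Without that array, 33 of 238 lasting genes up were lower (1.04% of all genes), 4 of 305 lasting genes down higher (0.459% of all), 3 of 86 delayed genes up lower and 1 of 100 transient genes up lower, the last below the share over all genes. With arrays scaled the counts were 25 of 232 (1.30% of all genes) for lasting up, 9 of 298 (0.779% of all) for lasting down, 4 of 84 for delayed up and 1 of 98 for transient up, again below that share. With MATa array 3 as deposited, out of place, they were 14 of 248, 9 of 317, 4 of 92 and 2 of 110. Over all genes 1.18% were then lower and 1.23% higher. With that array moved by 1 row they were 77 of 250, 41 of 317, 9 of 91 and 10 of 110. Over all genes 4.04% were then lower and 3.27% higher. Without msn2D array 1, they were 45 of 218, 26 of 286, 7 of 82 and 5 of 95. Without msn2D array 2 they were 48 of 214, 40 of 286, 7 of 79 and 7 of 93. Without msn2D array 3 lasting down was 34 of 292 and delayed up 8 of 81. Lower and higher over all genes were then 2.58% and 2.35%, 2.60% and 2.56%, and 2.81% and 2.20% in turn. Of the late genes up, 0 of 37 passed in limma in either direction, while 11 had an unadjusted p under 0.05, at a median difference of -0.56. By rule, late genes and genes up at 15 min only were under 2-fold at 30 min in YPS163. Their 30 min medians were 0.54 and 0.48, against 2.18 for lasting genes up. Differences between the classes in this readout are therefore partly set by the sorting rule. By list, 25 of 43 general stress genes and 12 of 18 trehalose and glycogen genes were lower in msn2D, against 2 of 26 chaperones, with 2 others higher.

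Single genes of the lasting class show the size. HXK1 had log2 ratios of 0.68, 0.82 and 1.12 in msn2D, against 6.60 and 6.58 in MATa, a difference of -5.72 ± 0.43 (SE, limma adjusted p = 6.81e-08). TSL1 had 1.43, 2.20 and 1.96 in msn2D, against 6.43 and 6.44 in MATa (-4.57 ± 0.26, limma adjusted p = 2.5e-09). For CTT1 the values were -0.56, 0.43 and 0.52 in msn2D and 5.29 and 4.95 in MATa (-4.99 ± 0.37, limma adjusted p = 2.3e-08). With so few arrays in each group, whether the msn2D and MATa values overlap says little about any single gene. The share of all genes without overlap was not counted. RGI1 kept part of its response, with 1.90, 3.06 and 4.38 in msn2D, against 8.72 and 9.06 in MATa (-5.78 ± 0.85, limma adjusted p = 0.00020). BTN2, ERO1 and FES1 did not pass, with limma adjusted p = 0.36, 0.93 and 0.098. HXT6 had -2.75, -3.26 and -3.15 in msn2D, against 3.55 and 1.18 in MATa (-5.42 ± 0.96, limma adjusted p = 0.0015), and its limma adjusted p was 0.081 without MATa array 1. Downward, ZPR1 had -0.44, -0.54 and -0.51 in msn2D, against -2.41 and -1.70 in MATa (1.56 ± 0.22, limma adjusted p = 0.00013). With array 3 of MATa added as deposited, TSL1, CTT1, RGI1 and ZPR1 no longer passed, at differences of -2.38 for TSL1, -3.13 for CTT1, -3.42 for RGI1 and 0.89 for ZPR1, and RGI1 did not pass with arrays scaled either (-4.30). HXK1 passed under each of the 10 alternatives.

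The hap1D strain was compared in the same way. HAP1 had a value on 0 of the 3 hap1D arrays. By limma, 3 of 5397 genes (0.0556%) were higher in hap1D than in MATa and 2 (0.0371%) lower, while 393 had an unadjusted p under 0.05.

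**Figure D5:**
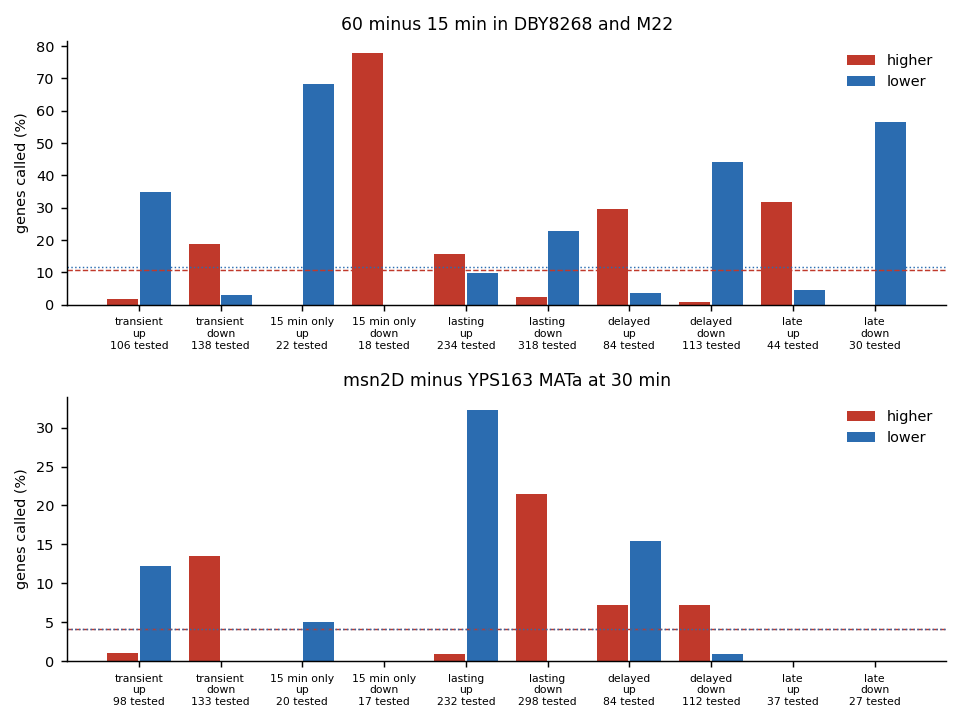
Share of the tested genes of each YPS163 time class (y axis, %) that limma called higher (red) or lower (blue) at an adjusted p under 0.05, at 60 minus 15 min in DBY8268 and M22 (top) and in msn2D minus MATa at 30 min (bottom). Dashed red and dotted blue lines are the shares over all genes tested, 10.9% and 11.8% at the top and 4.13% and 4.08% at the bottom. Lasting genes stand out in the lower panel and genes changed at 15 min only in the upper one. By rule, late genes and genes changed at 15 min only were under 2-fold at 30 min, the time of the lower panel.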

How the data were processed

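The authors deposited 1 table of log2 ratios per ORF and array. Base and direction were read from the values and titles, since the labels state neither; normalisation and spot filters are not given in the sources. Spot intensities were not analysed, and precision is limited by how few arrays there are. Gene symbols came from RefSeq (R64) by systematic name: 5830 ORFs matched and 465 did not. The genes, lists and classes were chosen with earlier results of these data known. Genes with 4 values were sorted by a threshold of 1 (log2) and a gap of 1. Named genes are the 8 leading ones of each class and direction with 3 arrays at 30 min and an SD of at most 0.75, plus members of 32 gene lists. The time-course replicate at each time is single, so classes carry no test. limma 3.58.1 in R 4.3.3 (lmFit, eBayes, Benjamini-Hochberg) tested 60 minus 15 min in DBY8268 and M22, and msn2D and hap1D minus YPS163 MATa. Triplicates are biological per the series' design text. Scripts were tested on simulated data. Same-numbered arrays deviated together between hap1D and MATa (correlations 0.665 and 0.543, 2 pairs) but not between msn2D and MATa (-0.246 and -0.072), and no label ties the numbers to a shared culture or day, so no pairing was assumed. Alternatives were other thresholds, centring, scaling, other 30 min arrays, and leaving out arrays. The YPS163 MATa array 3 correlated at 0.166 with its group as deposited and at 0.771 when moved by 1 row.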

Additional observations from a re-analysis of the deposited data

Results flagged for a closer look

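Among the genes of the lists and the leading genes of each class, 4 had all 4 times on one side of 0 in YPS163 and on the other side in another strain, with a mean size of at least 1 in both. The difference was not tested, since each strain has 1 array per time. MET17 averaged 2.79 over the 4 times in YPS163 and -1.84 in DBY8268, a difference of 4.64. PHM6, a phosphate-responsive gene, averaged 1.05 in YPS163 and -1.71 in DBY8268 (difference 2.75), and VTC3, of the polyphosphate synthase complex, 1.34 and -1.14 (difference 2.47). EXG1, a cell wall glucanase, averaged -1.17 in YPS163 and 1.36 in M22, a difference of -2.54. Groups of 1 or 3 arrays are too small for a check of single arrays that stand apart.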

How the results depend on the processing

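Counts of transient, lasting and late genes moved by more than 1.5 times as follows. A 1.5-fold threshold gave 190 transient genes up, 500 lasting up and 576 lasting down. A 4-fold threshold gave 26 transient up, 26 transient down, 61 lasting up, 53 lasting down, 19 late up and 15 late down. An SD of at most 0.5 at 30 min, which leaves 3578 genes, gave 79 transient down, 25 late up and 14 late down. The mean of 3 arrays at 30 min gave 20 late down. Chosen after seeing the data, leaving out the 60 min array gave 67 transient up and 46 transient down, and leaving out the 15 min array gave 381 lasting up. Of the smaller classes, 15 min only up gave 10 at 1.5-fold and 35 with arrays scaled, 15 min only down 32 to 35 with other 30 min values, delayed 44 up and 47 down at 4-fold, and reversing 101 up and 109 down at 1.5-fold, 3 and 1 at 4-fold, and 13 and 15 at the SD limit. Centring and scaling the arrays kept all 6 counts of transient, lasting and late genes within 1.5 times. The cause of these moves was not tested beyond what each setting removes.

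The fit of 60 minus 15 min called 1134 genes, against 717 for the later against the earlier 2 times and 197 to 976 when 1 array was left out, the lowest without M22 at 15 min and 547 without DBY8268 at 15 min. The msn2D fit called 443 genes, against 143 with array 3 of MATa as deposited, 112 with arrays scaled (42 higher and 70 lower, against 223 and 220), and 85 to 421 with 1 array left out, the lowest without MATa array 1. The hap1D fit called 5, against 19 with array 3 moved, 0 with arrays scaled, 0 for these groups alone (limma, with 125 and 483 genes at an unadjusted p under 0.05) and 0 to 14 with 1 array left out, the 0 being without MATa array 1, where 216 had an unadjusted p under 0.05. With the replicate number as a block, 424 genes were called for msn2D and 3 for hap1D, and no label says that the numbers pair the cultures.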
